A study of Mus musculus with 6 samples.

Results

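Transcripts of 6 genes, Sorbs2, Cttnbp2, Tubb2b, Cyyr1, Clca4b and Gm29051, were followed across the epithelial lineages of the mouse ileal crypt, out of 32285 genes in the count matrices. The 6 genes were chosen by their higher level in knockout than in control libraries, so that difference is described here with its values and carries no test. Crypts of the ileum were dissociated, cells stained for the epithelial surface protein EpCAM were sorted, and single-cell RNA sequencing was run on the droplet platform MobiNova-100. The control group, Fpr2f/f (labelled WT), had 3 libraries in which Fpr2, a receptor for formyl peptides, was flanked by loxP sites and left in place. The knockout group, Fpr2VKO, had 3 libraries in which the same floxed alleles met a Cre recombinase driven by the Villin promoter, which is active throughout the intestinal epithelium and not in stem cells alone. Mice were adults on the C57BL/6J background and were matched for age and sex. The labels give no treatment. The labels gave each library a number, and the study's text gives as many mice as libraries in each group, which makes a library 1 mouse.

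The crypt epithelium renews itself from intestinal stem cells (ISCs) at the crypt base. Their daughters divide as transit-amplifying (TA) cells and then become absorptive enterocytes or secretory goblet, Paneth, enteroendocrine (EE) and tuft cells. Among the members, SORBS2 is an adaptor protein with sorbin and SH3 domains that links the actin cytoskeleton to kinase signalling, and CTTNBP2 binds cortactin, an organizer of branched actin, and the striatin phosphatase scaffold. TUBB2B is a beta-tubulin best known from neurons. CYYR1 is a small membrane protein rich in cysteine and tyrosine, CLCA4B belongs to the CLCA family of secreted regulators of chloride conductance, and Gm29051 is annotated as a long intergenic noncoding RNA.

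The members lie on 6 different chromosomes. On GRCm38, Sorbs2 (ENSMUSG00000031626) spans chromosome 8, 45507788 to 45827906, on the plus strand. The other members are on the minus strand: Cttnbp2 (ENSMUSG00000000416) at chromosome 6, 18366478 to 18514843, Tubb2b (ENSMUSG00000045136) at chromosome 13, 34126748 to 34130466, Cyyr1 (ENSMUSG00000041134) at chromosome 16, 85421533 to 85553397, Clca4b (ENSMUSG00000074195) at chromosome 3, 144910921 to 144932529, and Gm29051 (ENSMUSG00000101606) at chromosome 17, 60001418 to 60130875. Antisense genes inside Sorbs2 (Gm16351 and Sorbs2os) and inside Cttnbp2 (Gm15594) have rows of their own in the matrices, and whether strand was used in counting is not given in the sources used here.

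Promoter sequences are shown for the 4 members matched in the RefSeq table, so that the starts of genes chosen together can be compared, and the last exon of Gm29051 is shown because this RNA is known mainly by its sequence. RefSeq promoters (GRCm38.p6, 250 bases before to 50 after a start site) were given for Sorbs2 (the first of its 3 start sites) at chr8:45507538-45507837 on the plus strand, Cttnbp2 at chr6:18514820-18515119, Cyyr1 at chr16:85550324-85550623 and Clca4b at chr3:144932480-144932779, the last 3 on the minus strand. The Cyyr1 window lies inside the gene span given above, which ends at 85553397, so it is not at the outer end of that span. The exon of Gm29051 comes from GENCODE (GRCm38, chr17:60001418-60001669, minus strand, 252 bases, 30.6% G or C). Capitals mark letters that match a searched motif on either strand, and all are written 5′ to 3′.
Sorbs2 promoter: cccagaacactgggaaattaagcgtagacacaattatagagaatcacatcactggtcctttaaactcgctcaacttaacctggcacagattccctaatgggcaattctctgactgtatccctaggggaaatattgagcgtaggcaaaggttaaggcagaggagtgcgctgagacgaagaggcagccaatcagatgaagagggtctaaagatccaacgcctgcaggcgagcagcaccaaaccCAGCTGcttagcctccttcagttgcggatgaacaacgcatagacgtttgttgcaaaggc
Cttnbp2 promoter: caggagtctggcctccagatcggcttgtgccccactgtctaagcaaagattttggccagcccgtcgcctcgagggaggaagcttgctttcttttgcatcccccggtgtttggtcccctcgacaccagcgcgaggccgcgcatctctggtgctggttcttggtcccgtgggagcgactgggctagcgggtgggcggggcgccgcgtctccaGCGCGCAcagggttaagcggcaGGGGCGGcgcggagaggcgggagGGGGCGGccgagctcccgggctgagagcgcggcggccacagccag
Cyyr1 promoter: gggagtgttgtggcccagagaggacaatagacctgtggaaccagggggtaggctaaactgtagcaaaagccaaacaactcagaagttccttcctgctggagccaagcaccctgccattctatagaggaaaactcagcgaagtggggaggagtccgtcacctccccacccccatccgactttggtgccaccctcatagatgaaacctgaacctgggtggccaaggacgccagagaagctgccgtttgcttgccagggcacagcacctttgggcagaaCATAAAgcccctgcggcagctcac
Clca4b promoter: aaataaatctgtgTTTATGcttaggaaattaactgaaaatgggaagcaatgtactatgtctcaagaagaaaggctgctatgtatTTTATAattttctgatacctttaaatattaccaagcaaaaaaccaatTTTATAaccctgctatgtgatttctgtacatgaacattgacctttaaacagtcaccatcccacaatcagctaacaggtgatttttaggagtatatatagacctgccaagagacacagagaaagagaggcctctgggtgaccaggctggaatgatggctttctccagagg
Gm29051 last exon: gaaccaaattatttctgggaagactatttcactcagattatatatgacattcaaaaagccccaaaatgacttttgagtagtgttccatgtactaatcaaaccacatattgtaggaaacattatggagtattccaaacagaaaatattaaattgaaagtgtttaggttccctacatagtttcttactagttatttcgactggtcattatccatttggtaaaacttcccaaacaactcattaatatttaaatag

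The 9 motifs named below were searched on both strands, and no motif was found in more than 2 of these members. CAGCTG, a site of basic helix-loop-helix factors such as ASCL2, was found in the Sorbs2 promoter 9 bases before the start site, and 16.3% of the 32851 promoters in the table hold it. CCGCCCC, a site of SP and KLF factors, was found at 2 places in the Cttnbp2 promoter and is held by 23.2% of promoters. TTTATG, a site of the intestinal CDX factors, was found in the Clca4b and Cyyr1 promoters and is held by 11.9% of promoters. It lay 237 bases before the start site in Clca4b and 26 bases after it in Cyyr1. TATAAA was found at 2 places in the Clca4b promoter (13.6% of promoters), and TGCGCNC, the core of the metal response element, at 1 place in that of Cttnbp2 (15.4%) and at 1 place in the promoter of the second Sorbs2 start site, which is not printed (chr8:45627501-45627800, plus strand). The printed windows did not hold CTTTGAT, which TCF and LEF factors of the Wnt pathway bind. They also did not hold AGATAA, bound by GATA factors, and no match was found for the HNF4 motif CAAAGTCCA. A variant of the metal response core, TGCACNC, was not found either. A match describes letters only.

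The 6 libraries held 90142126 to 189516114 UMIs, each UMI marking 1 captured transcript. Barcodes with at least 1000 UMIs, at least 500 genes and at most 20% mitochondrial UMIs were taken as cells, which left 1868 to 4722 barcodes per library. The mitochondrial limit removed 65.7% to 78% of the barcodes that passed the first 2 limits in Fpr2f/f and 76.1% to 90.1% in Fpr2VKO libraries. Before it, the median mitochondrial share was 26.3% to 31.7% in Fpr2f/f and 32.4% to 39.3% in Fpr2VKO libraries, so this share moved with genotype. After removal of predicted doublets, 16370 epithelial cells remained, with library medians of 2956.5 to 4483 UMIs in control cells and 6126 to 6714.5 UMIs in knockout cells, so depth moved with genotype. Fpr2 itself had 0 UMIs in every library, controls included, which allows at most 0.0613 to 0.12 counts per 1000000 UMIs (CPM) and gives no check of the genotype labels. Pairs of libraries shared 0 to 23 barcodes against 1.79 to 5.68 by chance, and leaving those barcodes out left the counts of non-overlapping members as they were. Summed over epithelial cells, immune markers reached 2.84 to 10.6 CPM, stromal and muscle markers 3.83 to 6.46 CPM, neuron and glia markers 7.84 to 16.5 CPM, and EpCAM and 2 other epithelial genes 1950 to 2100 CPM, each with overlap between the groups. By edgeR, 6 of 16493 genes tested over all epithelial cells changed between groups (0.0364%), 14 of 10956 in stem-like cells (0.128%) and 12 of 12152 in TA-like cells (0.0987%), counted at an adjusted p under 0.05.

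Most members were higher in the Fpr2VKO libraries of the stem-like and TA-like classes. In stem-like cells 5 members passed the filter on low counts, and for 4 of them (Sorbs2, Cttnbp2, Cyyr1 and Clca4b) every Fpr2VKO library was above every Fpr2f/f library, a pattern shown by 6.44% of all genes tested there. In TA-like cells 6 members passed and 5 of them, all but Clca4b, showed it, against 5.92% of genes. Over all epithelial cells it was 5 of 6, again all but Clca4b, against 6.79%. In TA-like and in all epithelial cells Gm29051 passed the filter through its Fpr2VKO counts, so its non-overlap was close to fixed by passing. The median log2 fold change of the members that passed was 0.85 in stem-like, 0.98 in TA-like and 0.79 in all epithelial cells, where the median over all genes was 0.00 in each. Since the members were chosen by this contrast, these counts describe the choice and are not evidence of a difference.

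**Figure D1:**
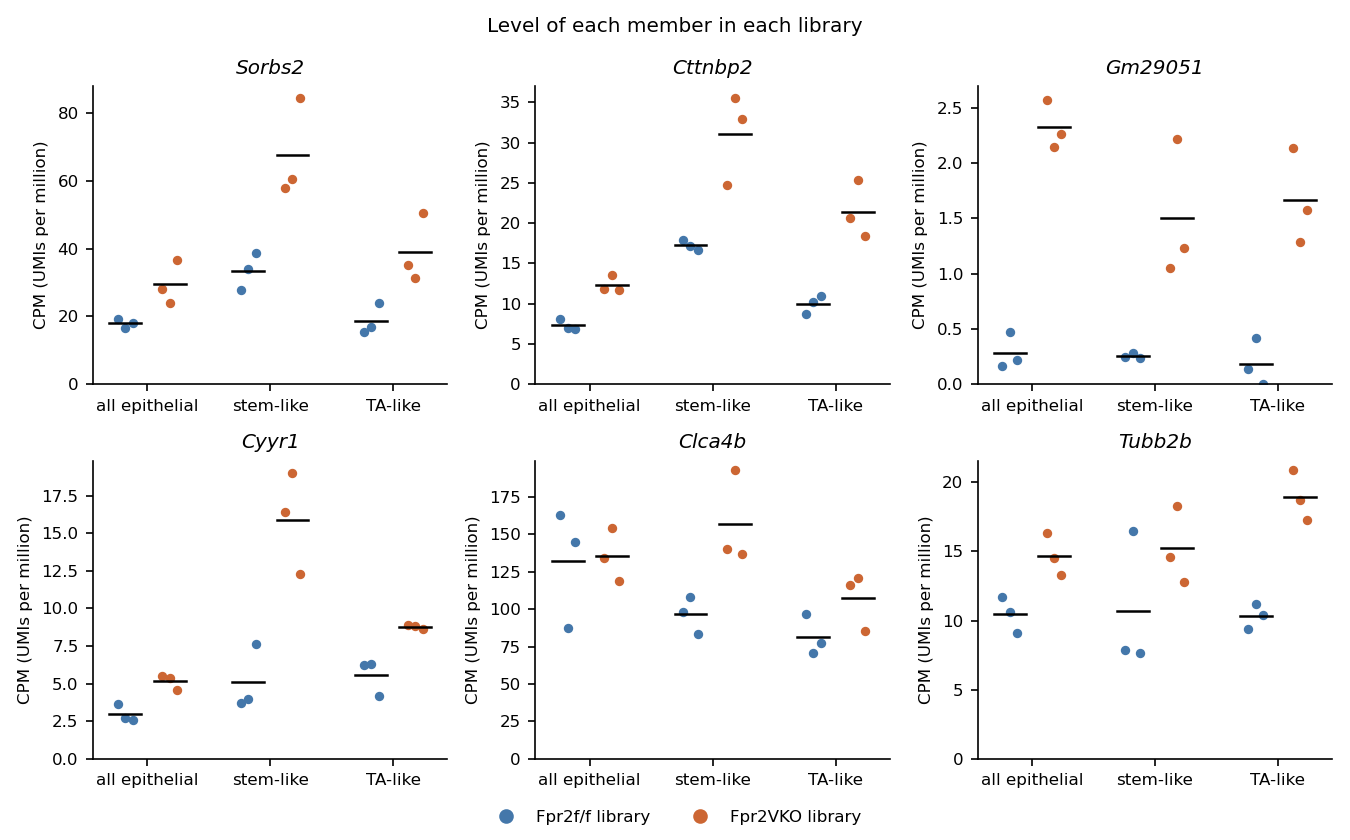
Level of each member in CPM (y axis from 0) in all epithelial, stem-like and TA-like cells. Points are the 3 Fpr2f/f and 3 Fpr2VKO libraries and bars are group means. Sorbs2 in stem-like cells lay at 27.8 to 38.7 CPM in Fpr2f/f and 57.9 to 84.6 CPM in Fpr2VKO libraries.

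Sorbs2 was 2.01-fold higher in stem-like and 2.11-fold higher in TA-like cells of Fpr2VKO libraries. In stem-like cells its level was 27.8, 33.9 and 38.7 CPM in Fpr2f/f libraries 1 to 3 and 57.9, 60.6 and 84.6 CPM in Fpr2VKO libraries 1 to 3. The lowest knockout library was well above the highest control library, and the fitted log2 fold change was 1.01 ± 0.15 (SE, 3 libraries per group). In TA-like cells the values were 15.4, 16.9 and 23.9 CPM against 35.1, 31.3 and 50.4 CPM, with a log2 fold change of 1.08 ± 0.18. Fpr2VKO replicate 3 was the highest library in both classes, and without it the log2 fold changes were 0.84 and 0.88. With predicted doublets kept, the stem-like value was 0.42. EE-like cells carried the most Sorbs2 of any class and did not show the difference, with 112, 165 and 149 CPM in Fpr2f/f and 87, 127 and 148 CPM in Fpr2VKO libraries (log2 fold change -0.23 ± 0.22). Enterocyte-like cells had little Sorbs2, at 2.11 to 3.2 CPM in Fpr2f/f and 2.27 to 7.31 CPM in Fpr2VKO libraries, and Paneth-like and goblet-like cells overlapped as well.

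Cttnbp2 followed Sorbs2 in stem-like and TA-like cells at a lower level. In stem-like cells it was at 17.9, 17.1 and 16.7 CPM in Fpr2f/f and at 24.7, 35.6 and 33 CPM in Fpr2VKO libraries, so the controls were tight and the knockout libraries spread out above them (log2 fold change 0.85 ± 0.17). In TA-like cells 8.72, 10.2 and 11 CPM stood against 20.6, 25.3 and 18.4 CPM, a log2 fold change of 1.13 ± 0.17. In the other classes the levels overlapped. Cttnbp2 was at 1.69 to 4.01 CPM in Fpr2f/f and 1.98 to 2.51 CPM in Fpr2VKO enterocyte-like cells, and at 8.02 to 13.2 CPM and 2.97 to 9.15 CPM in EE-like cells, where the highest value rested on 17 UMIs.

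Tubb2b differed between genotypes most plainly in TA-like cells. There it was at 9.41, 11.2 and 10.4 CPM in Fpr2f/f and 20.9, 18.7 and 17.3 CPM in Fpr2VKO libraries, with no overlap and a log2 fold change of 0.88 ± 0.16. In stem-like cells the groups overlapped, because Fpr2f/f replicate 2 had 16.5 CPM beside 7.87 and 7.64 CPM in the other control libraries, and the Fpr2VKO libraries had 14.6, 18.3 and 12.8 CPM. The stem-like log2 fold change was 0.55 ± 0.26, and 1.00 without that control library. Its main site, EE-like cells, had 75.6, 74.3 and 65.9 CPM in Fpr2f/f and 99.5, 72.5 and 91.2 CPM in Fpr2VKO libraries, which overlapped.

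Cyyr1 was a low transcript concentrated in stem-like and TA-like cells. In stem-like cells it was at 3.69, 3.98 and 7.64 CPM in Fpr2f/f libraries (15, 14 and 33 UMIs) and at 16.4, 19 and 12.3 CPM in Fpr2VKO libraries (109, 111 and 50 UMIs). The groups were apart and the log2 fold change was 1.64 ± 0.27, the largest of the 5 members fitted in that class. It was 1.03 with predicted doublets kept, 0.95 with a mitochondrial limit of 40% and 0.36 with a limit of 10%. In TA-like cells it was at 6.27, 6.31 and 4.17 CPM against 8.9, 8.82 and 8.66 CPM, a smaller difference with a log2 fold change of 0.63 ± 0.22. In enterocyte-like, Paneth-like, goblet-like and EE-like cells Cyyr1 did not pass the filter, with at most 13 UMIs in the 3 libraries of a group.

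Clca4b, the most abundant member, was higher in Fpr2VKO stem-like cells but not in enterocyte-like cells, where it is most abundant. In stem-like cells it was at 97.8, 108 and 83.4 CPM in Fpr2f/f and 140, 193 and 137 CPM in Fpr2VKO libraries, with no overlap and a log2 fold change of 0.70 ± 0.15. In TA-like cells 96.6, 70.5 and 77.5 CPM met 116, 121 and 85.5 CPM, and Fpr2VKO replicate 3 fell within the control range. In enterocyte-like cells the values were 472, 321 and 499 CPM against 410, 411 and 375 CPM, which gave -0.08 ± 0.17 on the log2 scale. In the epithelium as a whole the groups overlapped (87.4 to 163 CPM in Fpr2f/f, 119 to 154 CPM in Fpr2VKO, log2 fold change 0.11 ± 0.19), so the name of a gene higher in knockout did not hold for Clca4b over the whole epithelium. In unnamed cells, which held 24.4% ± 7.38 of Clca4b UMIs in control and 9.46% ± 1.97 in knockout libraries, the log2 fold change was -0.54 ± 0.25, and in EE-like cells it was 1.21 ± 0.46, both with overlap. Of all UMIs, unnamed cells held 24.2% ± 7.64 in control and 13.6% ± 2.72 in knockout libraries. Goblet-like cells did not overlap, at 8.99 to 11.4 and 12.6 to 13.8 CPM, a log2 fold change of 0.35 ± 0.25. Clca4b lies 42.5 kb from Clca4a, and their longest transcripts are 95.6% identical where aligned, and 89.1% over the last 300 bases, so reads of these copies may have been split in counting.

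Gm29051 had few UMIs in control cells and more in knockout cells, and its knockout level was above that of free RNA in all 3 libraries only in EE-like and enterocyte-like cells among the named classes. Over all epithelial cells control libraries 1 to 3 gave 4, 23 and 7 UMIs (0.16, 0.47 and 0.219 CPM), while knockout libraries 1 to 3 gave 95, 89 and 68 UMIs (2.57, 2.15 and 2.26 CPM). The fitted log2 fold change was 2.93 ± 0.36, the largest among the members, and 3.66 without Fpr2f/f replicate 2, the library with the most control UMIs. In EE-like cells there were 2 UMIs in the 3 Fpr2f/f libraries together and 20, 21 and 18 UMIs in the Fpr2VKO libraries (11.4, 20.3 and 17.8 CPM). The ratio of pooled levels there was 28.1 (95% interval 7.43 to 237). Stem-like cells gave 1 UMI in each control library and 7, 13 and 5 UMIs in the knockout libraries, a ratio of 5.99 (95% interval 1.83 to 31). These intervals cover counting error only. In TA-like cells 1, 4 and 0 UMIs stood against 18, 13 and 12 UMIs (log2 fold change 2.82 ± 0.65, and 4.15 without Fpr2f/f replicate 2), and in enterocyte-like cells 2, 3 and 1 against 27, 22 and 11 UMIs (2.98 ± 0.60). Goblet-like cells gave 1 against 17 UMIs in all (ratio 17.1, 2.68 to 714) and Paneth-like cells 6 against 17 UMIs (2.39, 0.9 to 7.41), both below the filter. Tuft-like cells had 0 against 3 UMIs in all, which is at the limit of detection.

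**Figure D2:**
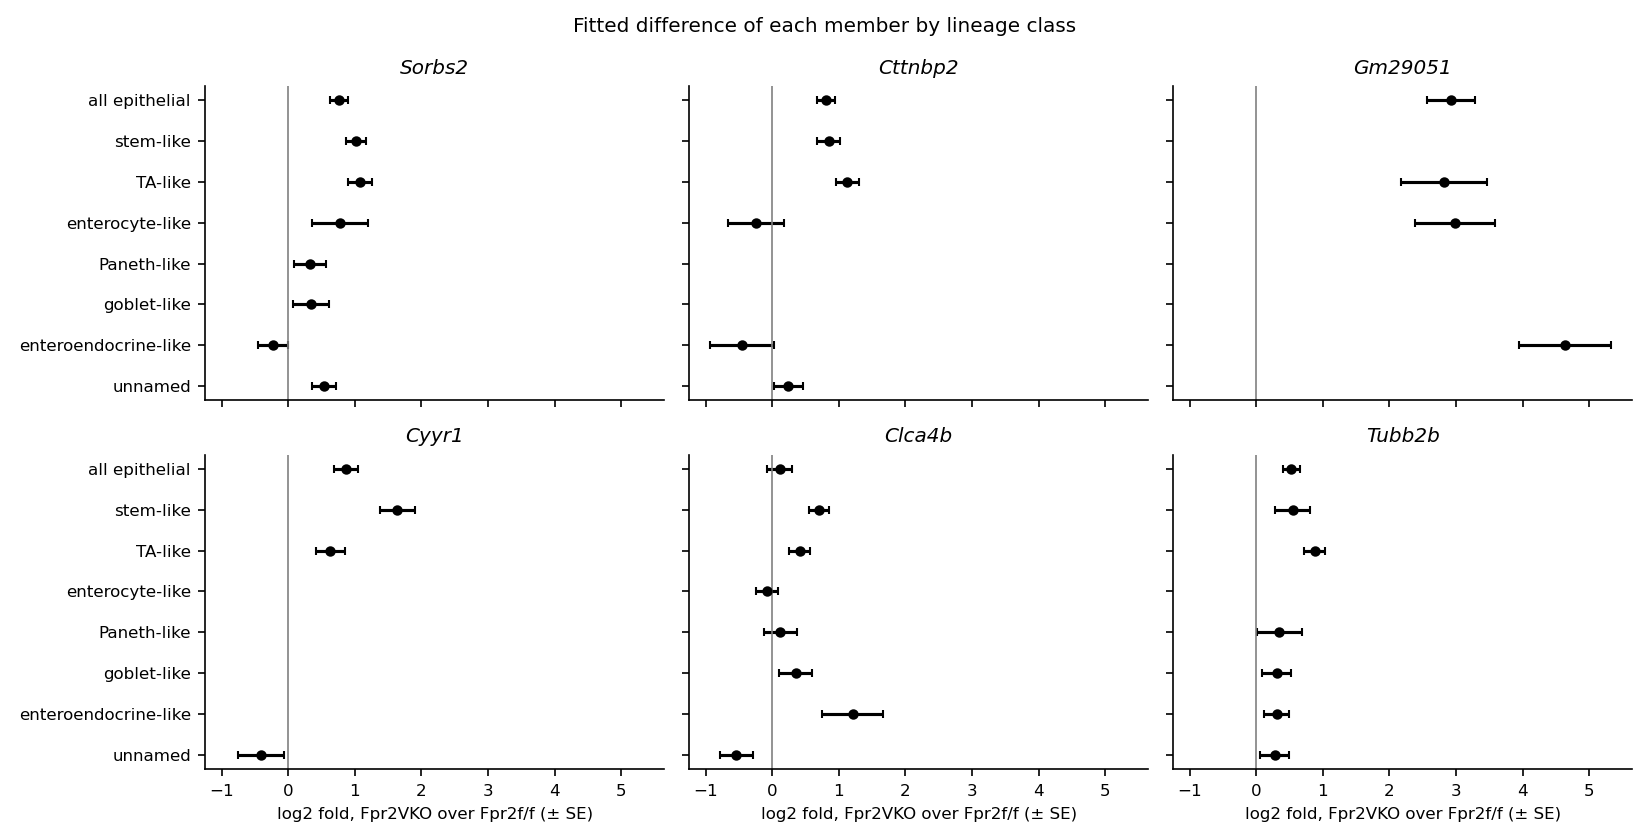
Fitted log2 fold change of each member, Fpr2VKO over Fpr2f/f, with its SE as the bar (x axis) by class (y axis). Points are shown where the member passed the filter on low counts. Sorbs2 lay at 1.01 in stem-like and -0.23 in EE-like cells, and Gm29051 was above 0 in every class fitted. Gm29051 was fitted only where its Fpr2VKO counts passed the filter. The EE-like value of Gm29051 rests on 2 Fpr2f/f UMIs and depends on the prior count of the fit.

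Beyond the stem-like and TA-like classes few members were apart. Of those that passed the filter, every Fpr2VKO library was above every Fpr2f/f library for 1 of 4 in enterocyte-like cells (Gm29051, 6.1% of all genes tested there), 1 of 3 in goblet-like cells (Clca4b, 6.23%), 1 of 5 in EE-like cells (Gm29051, 4.15%), 0 of 3 in Paneth-like cells (6.35%) and 1 of 5 in unnamed cells (Sorbs2, 5.3%). Gm29051 passed the filter in enterocyte-like and EE-like cells through its Fpr2VKO counts, with 6 and 2 Fpr2f/f UMIs in all. Its non-overlap there was therefore close to fixed by passing. Among the unnamed cells were clusters whose best match was the TA or the stem cell list. In unnamed cells together Sorbs2 was at 0.53 ± 0.18, Cttnbp2 at 0.24 ± 0.22 and Tubb2b at 0.28 ± 0.22 on the log2 scale. Cyyr1 (-0.41 ± 0.34) and Clca4b (-0.54 ± 0.25) went the other way. No member passed the filter in tuft-like cells, where 8.41% of genes showed the pattern. Whether the fold of a member differed between classes was not tested, since the members were chosen by the contrast itself.

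TA-like cells came from a deep cluster led by the mitotic genes Ccnb1 and Cdc20 (median 29760 to 50856 UMIs per library) and a shallow cluster led by Incenp and Top2a (2713 to 5338 UMIs). The deep cluster made up 30.8% to 53.8% of TA-like cells in Fpr2f/f and 49.5% to 66.3% in Fpr2VKO libraries. Within the deep cluster the log2 fold changes were 1.02 ± 0.26 for Sorbs2, 1.24 ± 0.18 for Cttnbp2, 0.85 ± 0.27 for Cyyr1, 0.84 ± 0.17 for Tubb2b and 0.36 ± 0.15 for Clca4b. They were about as large as over both clusters together, but the deep cluster supplied most UMIs of that sum. The likeness therefore says little about the shallow cluster. In the shallow cluster only 3 members passed the filter, with 1.21 ± 0.57 for Sorbs2, 0.42 ± 0.36 for Cttnbp2 and -0.06 ± 0.25 for Clca4b.

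Each member had its own lineage pattern, given here over the 6 libraries of both genotypes. Sorbs2 and Tubb2b were highest in EE-like cells, at 131 ± 28.5 and 79.8 ± 12.8 CPM (mean ± SD over 6 libraries). Sorbs2 then descended through stem-like (50.6 ± 21.2), TA-like (28.8 ± 13.1), tuft-like (20.5 ± 10.9), goblet-like (11.8 ± 3.63), Paneth-like (9.07 ± 3.03) and enterocyte-like cells (3.55 ± 1.97 CPM). Tubb2b descended from EE-like through goblet-like (24.3 ± 6.61), TA-like (14.7 ± 4.89) and stem-like cells (13 ± 4.43) to enterocyte-like cells (1.13 ± 0.793 CPM). Cttnbp2 and Cyyr1 peaked in stem-like cells, at 24.2 ± 8.4 and 10.5 ± 6.44 CPM, with TA-like cells at 15.7 ± 6.7 and 7.19 ± 1.92 CPM. These peaks came from the Fpr2VKO libraries (31.1 and 15.9 CPM in stem-like cells). Cttnbp2 was also higher in stem-like than in TA-like cells of Fpr2f/f libraries (17.2 ± 0.647 and 9.97 ± 1.15 CPM). In Fpr2f/f libraries the highest mean of Cttnbp2 was in tuft-like cells (18.7 ± 6.47 CPM from 13 UMIs, beside 17.2 ± 0.647 CPM in stem-like cells) and that of Cyyr1 in TA-like cells (5.58 ± 1.22 CPM, beside 5.11 ± 2.2 CPM), differences within the spread of the libraries. Clca4b peaked in enterocyte-like cells at 415 ± 64.3 CPM, over 126 ± 39.2 CPM in stem-like, 94.5 ± 20.5 CPM in TA-like and 7.47 ± 2.04 CPM in Paneth-like cells. Gm29051 was highest in EE-like cells in Fpr2VKO libraries, at 16.5 ± 4.57 CPM. In Fpr2f/f libraries it was at 0.665 ± 0.618 CPM there, from 2 UMIs. That is below the 2.01 to 3.66 CPM that 3 UMIs would give in these libraries, so no peak can be read in controls. The class with the highest mean over both genotypes was the same for all 6 members under each of the 7 alternative settings of the cell filters, clustering, shared barcodes and pseudocount.

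**Figure D3:**
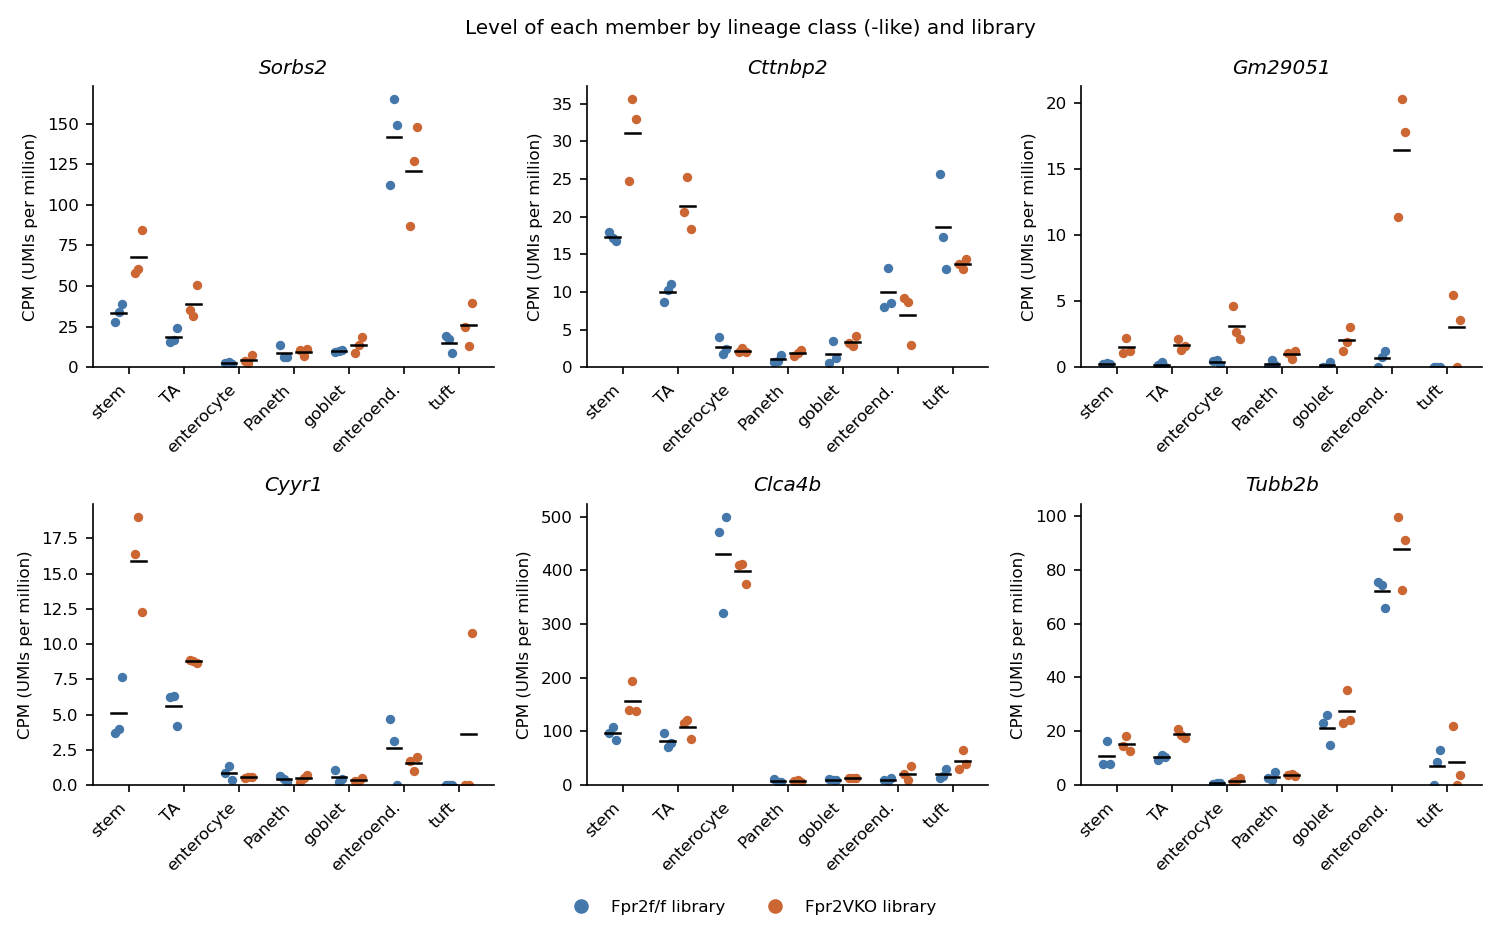
Level of each member in CPM (y axis from 0, a scale for each panel) in the 7 named lineage classes. Points are libraries, coloured by genotype, and bars are group means. EE-like cells carried the most Sorbs2 and Tubb2b and enterocyte-like cells the most Clca4b in both genotypes, and stem-like cells the most Cttnbp2 and Cyyr1 in Fpr2VKO libraries.

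The order of the classes was tested within libraries, with exact two-sided paired permutation tests of log2(CPM + 5) between neighbours in the order, 36 pairs in all. In 12 pairs all 6 libraries had the same direction, which gives the smallest p that 6 pairs allow (0.0312), and after adjustment over the 36 pairs none passed 0.05 (smallest adjusted p = 0.0938). With 36 pairs and that smallest p the test could hardly pass. The order also came from the same values, so 0 calls do not show that neighbours are alike. Among these 12 were the steps from EE-like to stem-like cells for Sorbs2 (mean log2 difference 1.35 ± 0.66, SD), from stem-like to TA-like cells for Sorbs2 (0.72 ± 0.10), from EE-like to goblet-like cells for Tubb2b (1.55 ± 0.36) and from enterocyte-like to stem-like cells for Clca4b (1.71 ± 0.54). The step from stem-like to TA-like cells did not have 1 direction for Cyyr1 (0.25 ± 0.49, higher in 4 of 6 libraries), and that from stem-like to tuft-like cells did not for Cttnbp2 (0.44 ± 0.61, 4 of 6). Neighbours further down the order mostly differed by less than their spread, as for TA-like against stem-like cells in Tubb2b (0.13 ± 0.29).

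The share of a member's UMIs by lineage shifted with these levels. Stem-like cells held 22.3% ± 7.15 of Sorbs2 UMIs in control and 34.5% ± 2.93 in knockout libraries (SD, n = 3), while they held 12.3% ± 4.64 and 15.2% ± 2.41 of all epithelial UMIs. EE-like cells held 27.3% ± 6.95 and 13.8% ± 0.749 of Sorbs2 UMIs with 3.72% ± 1.94 and 3.53% ± 1.13 of all UMIs. For Cyyr1 the stem-like share was 22.4% ± 15.7 and 46.4% ± 9.02, while that of unnamed cells was 25.8% ± 7.38 and 6.07% ± 0.394 (log2 fold change in unnamed cells -0.41 ± 0.34, with overlap). Unnamed cells held 24.2% ± 7.64 and 13.6% ± 2.72 of all UMIs. For Clca4b the stem-like share was 8.81% ± 0.999 and 17.3% ± 1.61. Gm29051 differed in that its EE-like share was 23.7% ± 2.71 in Fpr2VKO libraries, where the stem-like share was 9.78% ± 4.18.

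Stem cell markers moved with genotype beside these values. The stem-like class was 5.06% ± 2.23 of the epithelium in control and 9.45% ± 0.521 in knockout libraries. An unnamed cluster whose best match was also the stem cell list went the other way, from 9.95% ± 0.659 to 5.94% ± 1.65, and unnamed cells together were 49.7% ± 10.1 and 34.2% ± 4.29. Over the whole epithelium the 9 stem cell markers summed to 1020 to 1400 CPM in control and 2220 to 2360 CPM in knockout libraries. Sums over all epithelial cells hold both the share of a class and its level per cell, which cannot be told apart there. Within stem-like cells the same markers summed to 3540 to 4690 CPM in Fpr2f/f and 6830 to 7780 CPM in Fpr2VKO libraries, and 7 of the 9 were apart between groups, against 6.44% of genes, with 1 of the 9 called by edgeR. Within TA-like cells they summed to 1920 to 2230 CPM and 3650 to 4010 CPM, and 6 of the 9 were apart, against 5.92% of genes, with 2 called. Over all epithelial cells 7 of the 9 were apart, against 6.79% of genes, with 2 called. No marker of the list was at 0 in any library. Among its 10 leading genes the stem-like cluster had 1 marker of the stem cell list, Olfm4, and 1 of the TA list, Pcna, and the others were mostly DNA replication genes such as Mcm4 and Mcm6. The part of stem marker level in the members' difference was not tested.

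Shares of cells with a UMI were compared after each cell was thinned to 3000 UMIs, since the groups differed in depth. In stem-like cells 10.2% ± 0.678 had a Sorbs2 UMI in Fpr2f/f and 16.5% ± 2.31 in Fpr2VKO libraries, with no overlap (34% and 45.2% before thinning, with 16 and 33 shallower cells left out). In TA-like cells the shares were 4.16% ± 0.99 and 11% ± 1.69, also apart, with 214 and 130 cells left out. Enterocyte-like cells, at the low end for this gene, had 0.973% ± 0.63 and 1.74% ± 0.839 at the same depth, so the stem-like shares were above this background. For Cttnbp2 the TA-like shares of 3.42% ± 0.428 and 5.77% ± 1.57 were apart and the stem-like shares of 4.52% ± 2.42 and 8.07% ± 2.03 overlapped, with 0.176% ± 0.305 and 1.36% ± 0.546 in Paneth-like cells, which did not overlap but rested on 1 to 3 cells with a UMI in each Fpr2VKO library. For Cyyr1, Clca4b and Tubb2b the thinned shares of stem-like and of TA-like cells overlapped between groups. Cyyr1 was found in 2.15% ± 1.32 and 3.83% ± 2.36 of stem-like cells. For Gm29051 thinning left 1 stem-like cell with a UMI in each Fpr2VKO library, too few to compare.

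Barcodes were also split by their mitochondrial share, inside and outside the limit on cells. At 10% to 20% mitochondrial UMIs, 5 of 6 members had every Fpr2VKO library above every Fpr2f/f library, against 8.56% of the genes tested over all epithelial cells. At 20% to 40% it was 4 (8.92% of genes), above 40% it was 3 (3.77%), and at up to 10% it was 1, Gm29051 (1.79%). Sorbs2 was at 21.4 ± 2.96 CPM in Fpr2f/f and 23 ± 1.31 CPM in Fpr2VKO barcodes with up to 10% mitochondrial UMIs, at 15.5 ± 0.404 and 31.8 ± 8.83 CPM at 10% to 20%, and at 12.3 ± 0.451 and 22.6 ± 2.72 CPM at 20% to 40%. Cttnbp2 was at 5.3 ± 0.262 and 5.25 ± 0.754 CPM in the lowest range and at 8.86 ± 0.917 and 15.8 ± 2.08 CPM in the next. Gm29051 was at 0.232 ± 0.229 and 2.13 ± 0.184 CPM in the lowest range and at 0.696 ± 0.107 and 1.67 ± 0.584 CPM above 40%. The lowest range held 619 to 1402 barcodes per Fpr2f/f and 340 to 756 per Fpr2VKO library. With cells limited to 10% mitochondrial UMIs and clustered anew, the groups were apart for 3 of 6 members over all epithelial cells (10.6% of genes). That count was judged on normalized levels and those of the ranges above on plain CPM, so they are unlike measures. Log2 fold changes there were 0.47 for Sorbs2, 0.37 for Cttnbp2, 0.16 for Cyyr1, 0.37 for Tubb2b, -0.38 for Clca4b and 3.13 for Gm29051. These were fitted on normalized counts. In plain CPM the ratio of Fpr2VKO over Fpr2f/f barcodes in the lowest range was 1.07 for Sorbs2, 0.991 for Cttnbp2 and 1.01 for Tubb2b. It was 0.839 for Cyyr1, 0.591 for Clca4b and 9.17 for Gm29051. For all members but Gm29051 the fitted value lay above the plain one, and the reason was not tested. In stem-like cells the groups were apart for 1 of 5 (5.2% of genes), with Sorbs2 at 0.42, Cyyr1 at 0.36, Cttnbp2 at 0.70, Clca4b at 0.43 and Tubb2b at 0.18. In TA-like cells 1 member passed the filter and its groups overlapped (23.6% of genes were apart). TA-like cells there numbered 34 to 80 per Fpr2f/f and 13 to 43 per Fpr2VKO library. Libraries with under 20 cells of a class were left out of its fit. Not every Fpr2VKO library entered, so 23.6% cannot be set beside shares from all 6 libraries. That setting left 35 to 82 stem-like cells per library. The part of mitochondrial share in the members' difference was not tested.

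**Figure D4:**
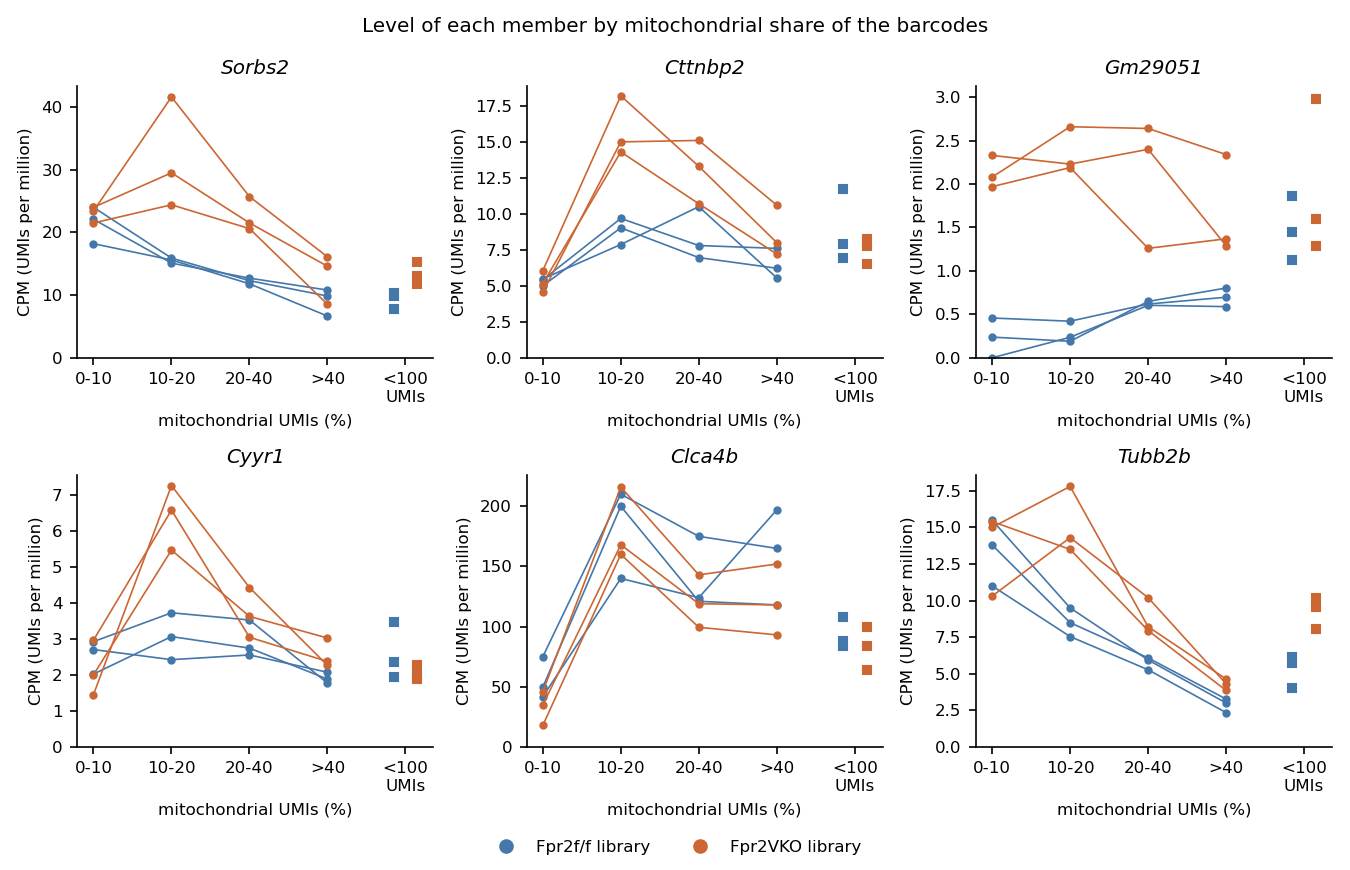
Level of each member in CPM (y axis from 0) in barcodes with at least 1000 UMIs and 500 genes, split by their mitochondrial share (x axis, %), with 1 line per library, and in barcodes with fewer than 100 UMIs (squares). Gm29051 lines of the 2 genotypes stayed apart in all 4 ranges, while those of Sorbs2 and Cttnbp2 overlapped in the lowest range and above 40%.

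Free RNA, taken as barcodes with fewer than 100 UMIs, carried the members too. Sorbs2 (9.35 ± 1.39 CPM in Fpr2f/f, 13.4 ± 1.77 in Fpr2VKO) and Tubb2b (5.3 ± 1.13 and 9.29 ± 1.09 CPM) were apart between groups there, against 2.72% of genes, and the other members overlapped. Gm29051 was at 1.48 ± 0.366 CPM in Fpr2f/f and 1.96 ± 0.9 CPM in Fpr2VKO free RNA, so the control level in free RNA was above that in control cells. In Fpr2VKO libraries its EE-like level (11.4 to 20.3 CPM) was above free RNA (1.29 to 2.98 CPM) in 3 of 3 libraries, and its enterocyte-like level (2.17 to 4.66 CPM) was as well, compared library by library. Its stem-like (1.05 to 2.22 CPM) and TA-like levels (1.29 to 2.14 CPM) were above free RNA in 1 of 3 libraries, its goblet-like level (1.19 to 3.07 CPM) in 2 of 3 and its Paneth-like level (0.629 to 1.2 CPM) in 0 of 3. Free RNA was not subtracted from cells, and its part in the low counts of Gm29051 was not tested.

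No gene related to the members by family or by binding passed the test. Of all genes tested, 9.19% over all epithelial, 7.46% in stem-like and 6.66% in TA-like cells had an unadjusted p under 0.05. Among sorbin adaptors and partners of SORBS2, 9 of 10 listed genes were tested, and 0 passed an edgeR adjusted p of 0.05 in all epithelial, stem-like or TA-like cells (0, 0 and 0 at an unadjusted p under 0.05, and 0 by DESeq2). Of 17 genes of cortactin and the striatin complex, 16 or 17 were tested and 0 passed (0, 1 and 0 at an unadjusted p under 0.05, and 0 by DESeq2), and their median log2 fold change was 0.01 in stem-like and 0.08 in TA-like cells. Of 16 other tubulins, 9 to 14 were tested and 0 passed (1, 3 and 1 at an unadjusted p under 0.05, and 0 by DESeq2). Of the 9 tested tubulins 2 had a positive log2 fold change in stem-like cells, with Tubd1 lowest at -0.58, and 7 in TA-like cells. Over all epithelial cells Tubb6 had the smallest adjusted p (0.286) at -1.23 ± 0.31. Tubb2a, 52.5 kb from Tubb2b, was at 4.15 ± 2.2 and 7.17 ± 2.22 CPM in TA-like cells (log2 fold change 0.86 ± 0.32, adjusted p = 0.556), and the longest transcripts of this pair are 95% identical where aligned but 65.9% over the last 300 bases. The abundant Tubb5 was at 315 ± 13.3 and 362 ± 29.4 CPM in TA-like cells (0.21 ± 0.13, adjusted p = 0.881). Of 7 CLCA family genes listed, 6 were in the matrices, 4 to 6 were tested and 0 passed (2, 2 and 1 at an unadjusted p under 0.05, and 0 by DESeq2). Clca3b, the most abundant of them, was at 984 ± 126 and 1120 ± 74.1 CPM in stem-like cells (0.19 ± 0.13, adjusted p = 0.809).

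No gene near the members passed the test either. Within 500 kb of a member's start, 24 genes were tested in stem-like cells, 26 in TA-like and 42 over all epithelial cells, and 0 passed an edgeR adjusted p of 0.05 in each (4, 4 and 5 at an unadjusted p under 0.05, and 0, 0 and 1 by DESeq2). In 4, 4 and 5 of them every Fpr2VKO library was above every Fpr2f/f library, against 6.44%, 5.92% and 6.79% of all genes. Cyp4v3, a fatty acid hydroxylase at -175 kb from the Sorbs2 start (chosen here after its values were seen), had log2 fold changes of 0.79 ± 0.18 in stem-like (adjusted p = 0.0577) and 0.84 ± 0.18 in TA-like cells (adjusted p = 0.137). Nearer to Sorbs2, Tlr3, a sensor of double-stranded RNA and the nearest tested gene on that side, was at -0.12 ± 0.22 and 0.08 ± 0.18, and on the other side Ufsp2 at 468 kb was at -0.19 ± 0.13 in stem-like and 1700029J07Rik at 467 kb at -0.15 ± 0.42 in TA-like cells. Cftr, the chloride channel gene 344 kb from Cttnbp2, was at 0.26 ± 0.14 and 0.06 ± 0.16, and Gm20186 on the other side at -0.53 ± 0.41 and -0.18 ± 0.27. App, 380 kb from Cyyr1 and the single neighbour tested there in these classes, was at 0.22 ± 0.12 and 0.14 ± 0.12. Psmg4, at -32.5 kb from Tubb2b (upstream of its start), was at 0.14 ± 0.13 and 0.15 ± 0.12. Beside Clca4b, Clca3b at 83.2 kb had 0.19 ± 0.13 and 0.25 ± 0.14, and Clca1 at -100 kb had -0.71 ± 0.25 and -0.09 ± 0.46. Around Gm29051 no neighbour passed the filter in either class.

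**Figure D5:**
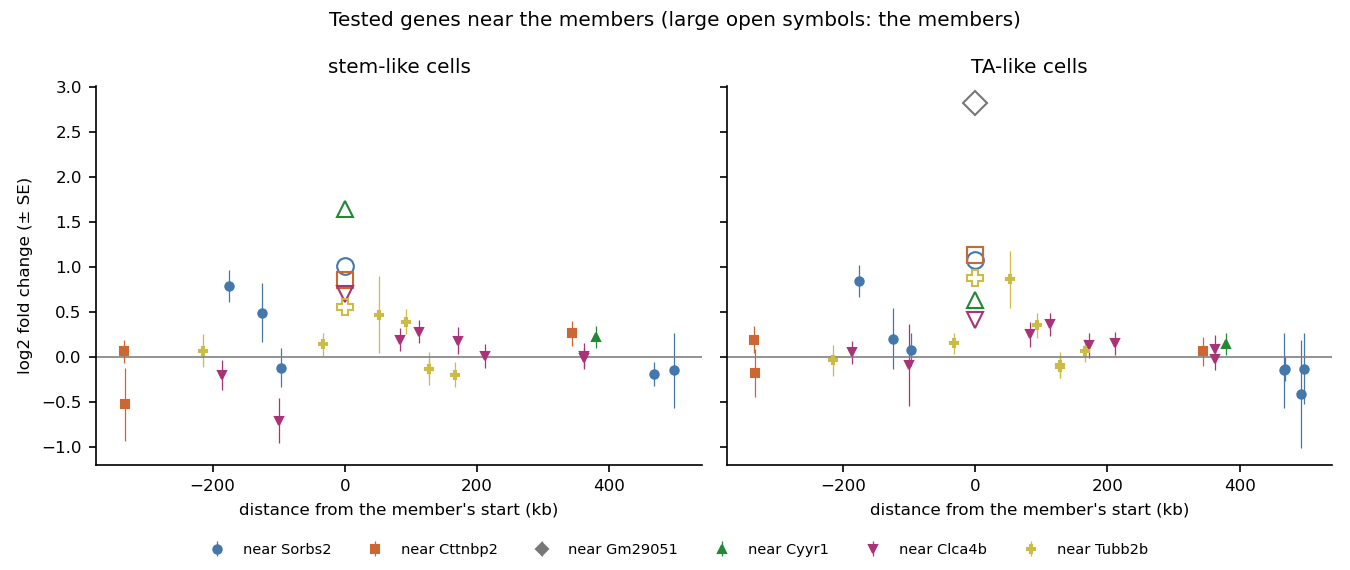
Fitted log2 fold change with SE (y axis) of every tested gene within 500 kb of a member, by distance from the member's start in kb (x axis, positive in the member's direction of transcription), in stem-like and TA-like cells. Large open symbols at 0 are the members. Most neighbours lay near 0, and Cyp4v3 at -175 kb was at 0.79 in stem-like cells.

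The pattern over lineages and libraries was compared between genes by Pearson's r of log2 CPM over 48 sums of a class and a library, which share libraries and depth, so r is a description. Most like Sorbs2 were Nav1 (0.93), Dach1 (0.91) and Bex3 (0.90). Most like Cttnbp2 were Siva1 (0.90), Cnn3 (0.89) and Rpa1 (0.87), and most like Tubb2b were Maged1 (0.90), Tox (0.82) and Tceal9 (0.81). Cyyr1 came closest to the stem cell marker Olfm4 and to Prps2 (0.78 each) and to Cldn2 (0.77). Clca4b came closest to Prap1 and Ccl25 (0.96 each) and to Maoa (0.94), genes of the enterocyte side. For Gm29051 the highest was Mt1, a metallothionein, at 0.59. Between members r was highest for Sorbs2 and Tubb2b (0.72) and lowest for Clca4b and Tubb2b (-0.36).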

How the data were processed

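The authors aligned reads to the mouse build mm10 with MobiVision and deposited raw UMI counts per gene and barcode. The submitters' processing notes also name Seurat, whose later steps are not in these files. The annotation release is not given in the sources used here. Files listed every possible barcode, so cells were called here by the limits given above, with doublets scored against 25% artificial doublets and the top 0.8% per 1000 cells removed (428 of 17104 barcodes). Counts were log-normalized, 30 principal components were taken from 2000 variable genes (members and mitochondrial genes left out), mutual nearest neighbours were used to align libraries, and Leiden clustering (leidenalg 0.10.2, scanpy 1.11.5) at resolution 1 gave 21 clusters. A cluster took the name of the marker list with the highest mean log2 fold if this was at least 0.5, with at least 3 markers higher and detected in 10% of cells, no more leading markers of another class, and at least 1 own marker among its 10 leading genes. This last condition was set after the leading genes were seen, and it left unnamed a cluster closest to stem cells (9.95% ± 0.659 of the epithelium in control and 5.94% ± 1.65 in knockout libraries), a cluster closest to enterocytes (13.3% ± 6.01 and 5.72% ± 2.39) and a cluster closest to TA cells (3.27% ± 0.2 and 2.67% ± 0.0395). Immune-like clusters (306 cells) were left out.

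UMIs were summed per library and class, so the library was the replicate. The members were left out of clustering, and all genes passing filterByExpr were fitted with the edgeR 4.0.16 quasi-likelihood test (R 4.3.3, TMM, robust), with Benjamini-Hochberg adjustment. The SE of a log2 fold change was taken as |log2 fold change|/√F. CPM in the text is the plain UMI count per 1000000 UMIs of the class. For genes fitted in a class, "apart" or "no overlap" was judged on normalized log2 CPM. In the mitochondrial ranges and free RNA it was judged on plain CPM, and for thinned shares on the percentages of cells. By the study's legends each group had as many mice as libraries, so p-values measure the spread between mice. DESeq2 1.42.0 and other settings were run as alternatives. Named genes were the members, the listed related genes, neighbours that were called or nearest on either side, and the 3 genes with the highest r at a mean of at least 20 CPM. The members and all lists were chosen with earlier results of these data known. Matrix genes were matched to the GENCODE annotation by ID (32235 of 32285).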

Additional observations from a re-analysis of the deposited data

How the results depend on the processing

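Where a member could be fitted in all epithelial, stem-like or TA-like cells, its fold change kept its sign under the alternatives that gave a value, except that of Clca4b over all epithelial cells, which was 0.11, ranged from -0.38 (mitochondrial limit of 10%) to 0.25 and kept its sign in 11 of 15. With a mitochondrial limit of 10% the fits over all epithelial cells gave 0.37 for Cttnbp2 and 0.16 for Cyyr1. In plain CPM the ratios in barcodes of that range were 0.991 and 0.839, so the plain levels did not share that sign. The alternatives also use the libraries whose contrast chose the members, so a kept sign is a description. In stem-like cells Gm29051 was not fitted in the main setting, so no sign could be compared. With a mitochondrial limit of 40% all 6 members passed the filter there. With a mitochondrial limit of 10% only Clca4b was fitted in TA-like cells. Counts of genes called depended strongly on the setting. Over all epithelial, stem-like and TA-like cells they were 6, 14 and 12. They were 106, 25 and 27 with DESeq2 and 301, 135 and 129 without a filter on low counts. With the replicate block they were 39, 87 and 246. Deviations of same-numbered libraries had r of -0.07, -0.04 and 0.28 over 16493 genes, and those of the other control and knockout pairs -0.18 to 0.19. Of 3 control libraries, 1 correlated best with its own number. A mitochondrial limit of 40% gave 3 over all cells and 23 in stem-like cells, a limit of 10% gave 104, 1 and 7, at least 2000 UMIs gave 3 over all cells, and keeping predicted doublets gave 1 in stem-like and 21 in TA-like cells. The cause was not tested.

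Leaving out 1 library gave 1 to 82 calls over all epithelial cells (control library 1 left out gave 82, control 2 gave 2, control 3 gave 3, knockout 1 gave 1 and knockout 2 gave 10), 12 to 23 in stem-like cells (knockout 3 gave 23) and 1 to 26 in TA-like cells (control 2 gave 1, knockout 1 gave 2, control 3 gave 26 and knockout 3 gave 22). Members without overlap were 5, 4 and 5 (beside 6.79%, 6.44% and 5.92% of all genes), and with 1 library left out 5 to 5, 4 to 5 and 4 to 6. With fewer libraries in a group non-overlap is easier to reach, and its share over all genes is not given there. The counts with a library left out therefore say nothing of stability. A mitochondrial limit of 10% gave 3, 1 and 0, where 1 member passed the filter in TA-like cells and not every Fpr2VKO library entered there. Leaving out barcodes found in several libraries, an alternative added after the data were seen, gave 5, 4 and 5, and the share over all genes is not given there either. The test of neighbouring classes could hardly pass with 36 pairs and a smallest p of 0.0312, so its 0 calls under every setting say nothing of stability. With 5 libraries the smallest p is 0.0625, so that test was not repeated with a library left out. Depth limits Gm29051 most, with 34 UMIs in all control cells.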
